A study of Homo sapiens with 3 samples.

Results

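The short arm (8p) and the long arm (8q) of human chromosome 8 were compared for TEAD binding and for acetylation of histone H3 at lysine 27 (H3K27ac) in 786-O cells, a carcinoma cell line of clear cell renal origin. Members were the called peaks, termed regions here, of chromosome 8 in the hg19 build. A region belonged to 8p if it ended at or before 43.1 Mb and to 8q if it began at or after 48.1 Mb. By this rule 8p held 409 TEAD and 763 H3K27ac regions, and 8q held 1334 TEAD and 1614 H3K27ac regions. Together these are 1743 of 35241 TEAD regions (4.95%) and 2377 of 52667 H3K27ac regions (4.51%) on chromosomes 1 to 22 and X. No region of either list fell between the arm limits, so every region of the chromosome was assigned.

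The series comprises 3 libraries of 786-O chromatin, 1 immunoprecipitated for H3K27ac, 1 immunoprecipitated for TEAD and 1 of input, with no treatment or genotype beyond the cell line in the labels. The peak names in the TEAD list read TEF1 and TEF3. Peak lists of the first and second library were used, and the input library was not analysed here. Each group had 1 library, so no difference between the arms has a replicate check, regions are not replicates, and no test was run. Intervals are 95% intervals that cover counting error only. The members were chosen by their position among called peaks, and every value below comes from the same lists and is given as a description.

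TEAD proteins bind DNA at enhancers and promoters and recruit the co-activators YAP and TAZ, whose entry into the nucleus is limited by the kinases of the Hippo pathway. H3K27ac marks promoters and enhancers in use. The long arm of chromosome 8 carries MYC, a transcription factor gene of cell growth that is controlled by enhancers spread over the surrounding gene-poor stretch of band q24. Loss of 8p and gain of 8q recur in many carcinomas. DNA copy number was not measured in this series, so an arm and its number of copies cannot be told apart in any comparison below.

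TEAD regions were denser on 8q, and H3K27ac regions were not. TEAD density was 9.49 regions per Mb (8.60 to 10.5) on 8p and 13.6 per Mb (12.9 to 14.3) on 8q, a ratio of 1.43 (1.28 to 1.602). H3K27ac density was 17.7 per Mb (16.5 to 19.0) on 8p and 16.4 per Mb (15.6 to 17.3) on 8q, and the interval of their ratio, 0.93 (0.85 to 1.01), included 1. TEAD regions per H3K27ac region therefore numbered 0.54 (0.47 to 0.61) on 8p and 0.83 (0.77 to 0.89) on 8q, beside 0.67 on the other chromosomes. Arm length was counted from the first region at position 22874 to 43.1 Mb (43.1 Mb) and from 48.1 Mb to the last region, which ended at 146301239 (98.2 Mb).

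The TEAD excess on 8q was smaller among regions of high fold, but not among regions of low q-value. Fold enrichment compares the read pileup at the summit with the local background of the peak caller, as deposited by the authors. Among regions of at least 5-fold, TEAD density was 8.33 per Mb on 8p and 9.82 on 8q, a ratio of 1.18 (1.04 to 1.33). At 20-fold or more 36 TEAD regions lay on 8p and 98 on 8q, a ratio of 1.19 whose interval (0.81 to 1.80) included 1. The H3K27ac ratio was also lower at 5-fold, and among the fold minima it was higher only from 15-fold. At 5-fold or more H3K27ac was sparser on 8q, 9.43 against 12.4 per Mb, with a ratio of 0.76 (0.68 to 0.85). The ratio was 0.78 at 8-fold, 0.86 at 10-fold and 1.02 at 15-fold. At 20-fold or more, 24 H3K27ac regions on 8p and 96 on 8q gave a ratio of 1.75 (1.11 to 2.87). For each H3K27ac region there were more TEAD regions on 8q than on 8p at 5-fold (1.04 against 0.67) and at 10-fold (0.88 against 0.65), and lower at 20-fold (1.02 against 1.5).

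**Figure D1:**
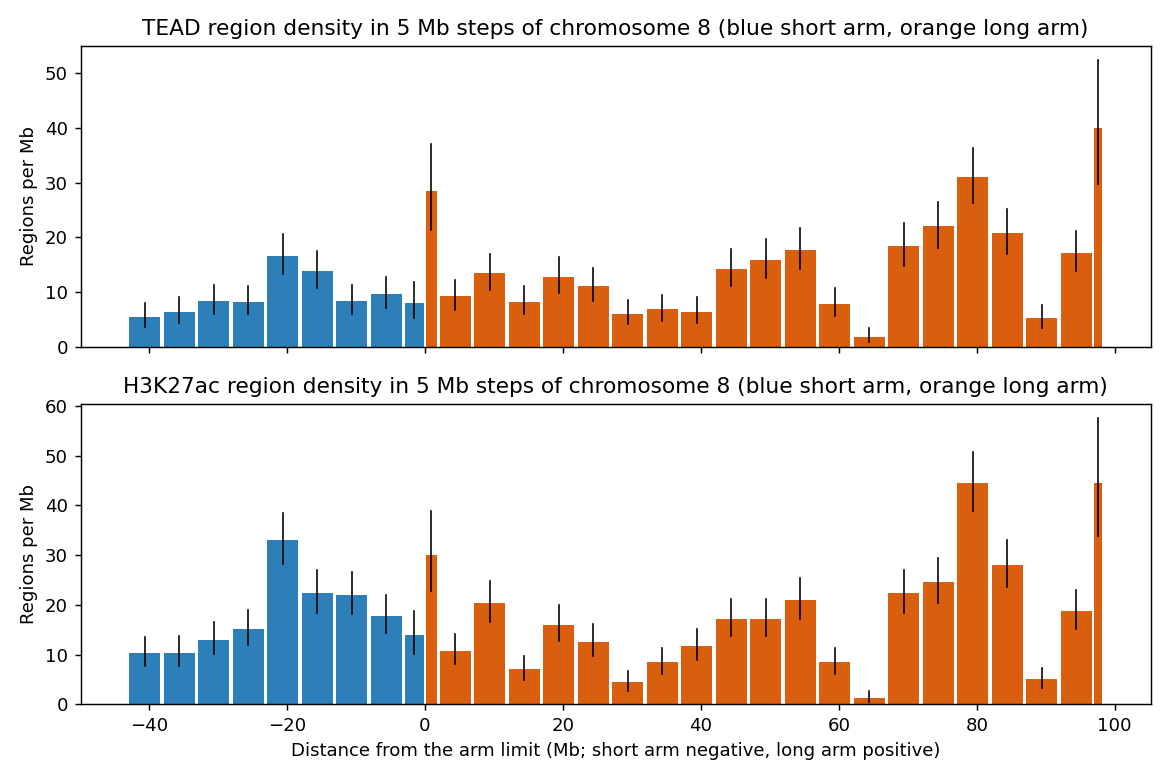
Regions per Mb (vertical axis) in 5 Mb steps of chromosome 8, for TEAD above and H3K27ac below, against distance from the arm limit in Mb; blue bars are 8p, orange bars are 8q, and lines are exact 95% Poisson intervals. The highest full step of both lists is the one from 125 to 130 Mb, with 31.0 TEAD and 44.6 H3K27ac regions per Mb; bars next to the limits and at the chromosome ends rest on shorter stretches.

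Density varied more within an arm than between the arms, as the plot of regions per Mb by step shows. On 8p the step from 20 to 25 Mb was the densest, with 83 TEAD and 165 H3K27ac regions (16.6 and 33.0 per Mb). The step from 0 to 5 Mb was the sparsest of that arm in both lists, with 27 TEAD and 51 H3K27ac regions. On 8q the step from 125 to 130 Mb, the part of the arm in which MYC lies, held 155 TEAD and 223 H3K27ac regions. The short stretch from 145 Mb to the end was denser still in TEAD, with 39.96 regions per Mb, and that from 48.1 to 50 Mb had 28.4. The step from 110 to 115 Mb was nearly empty, with 9 TEAD and 6 H3K27ac regions. Without the 125 to 130 Mb step the TEAD density ratio of 8q to 8p was 1.33 and the H3K27ac ratio 0.84; without the 20 to 25 Mb step of 8p they were 1.59 and 1.05.

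Spacing followed the same pattern. Neighbouring TEAD summits lay a median of 29.2 kb apart on 8p (interquartile range 6.55 to 92.7 kb) and 20.5 kb on 8q (5.28 to 65.7 kb). H3K27ac summits lay 7.56 kb apart on 8p and 8.91 kb on 8q. The longest stretch without a TEAD summit ran from 2074990 to 6500210 on 8p (4.43 Mb) and from 111848456 to 115953472 on 8q (4.11 Mb). H3K27ac was missing over nearly the same stretches, for 4.29 Mb on 8p and 5.52 Mb on 8q.

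The local background changed abruptly from one arm to the other. This background, the number of reads the peak caller took as the chance level at a summit, was recovered from each region's fold and p-value, and its lowest possible value was 1.297 reads for TEAD and 1.45 for H3K27ac. At TEAD regions the mean was 1.71 ± 0.62 reads (SD over 409 regions) on 8p and 3.89 ± 1.41 (SD over 1334 regions) on 8q, a ratio of 2.27. At H3K27ac regions it was 1.88 ± 0.71 (SD over 763 regions) and 4.31 ± 1.35 (SD over 1614 regions), a ratio of 2.30. On the other chromosomes the means were 2.69 for TEAD and 2.94 for H3K27ac, between the values of the 2 arms. Which control the caller used is not given, and both lists may share it, so the second list is not independent support for the first.

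The floor set a large part of the 8p values. At H3K27ac regions 354 of 763 on 8p (46.4%, 42.9 to 49.9%) and 4 of 1614 on 8q (0.25%) sat at the floor, beside 6.12% of the whole list. At TEAD regions it was 135 of 409 (33.0%, 28.6 to 37.7%) and 6 of 1334 (0.45%), beside 6.03% of the whole list. The floor thus bounds the means of 8p from below, and the ratios are not ratios of control signal. Without the regions at the floor they were 2.04 for TEAD and 1.92 for H3K27ac, and from medians they were 2.56 and 2.86. The spreads hardly met: 21 of 763 H3K27ac regions of 8p reached the 8q median of 4.22 reads, and 5 of 1614 on 8q were at or below the 8p median of 1.48. Among TEAD regions 4 of 409 on 8p reached the 8q median of 3.59 reads. Within deciles of region width the H3K27ac ratio ran from 2.05 to 2.52 and the TEAD ratio from 1.97 to 2.45.

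**Figure D2:**
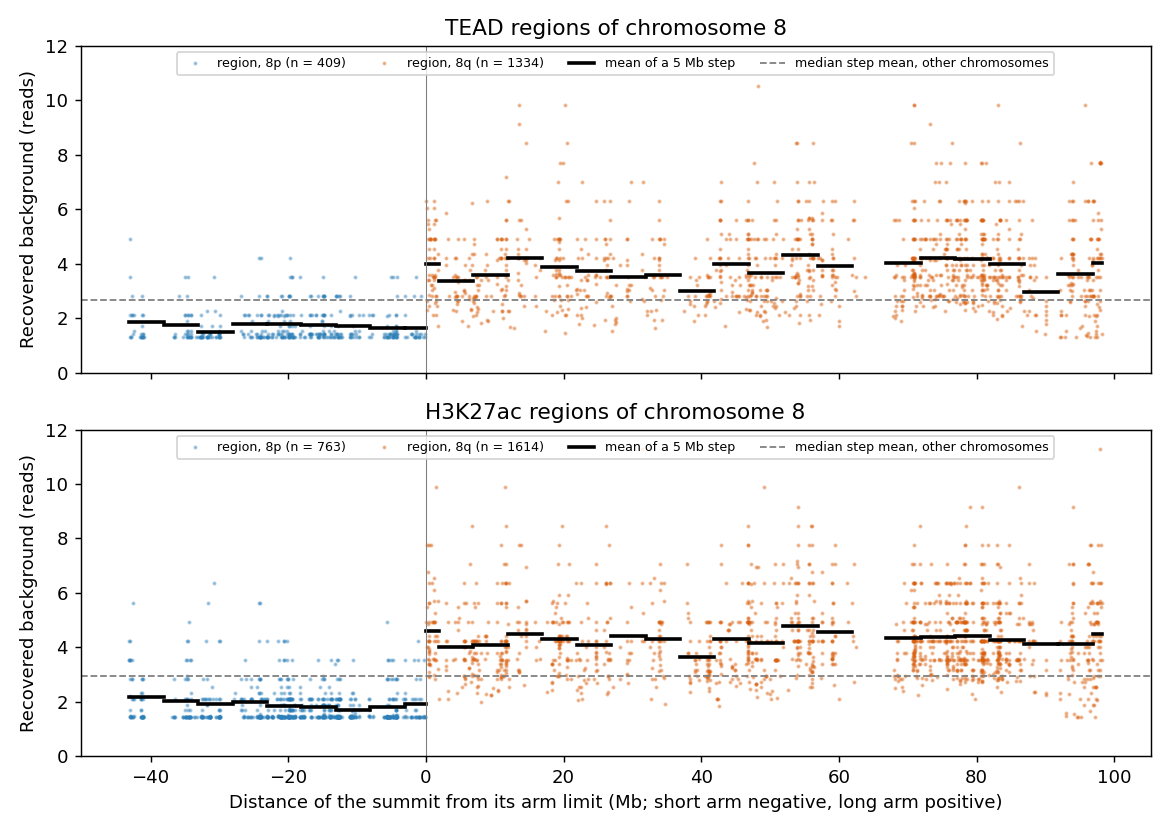
Recovered background in reads (vertical axis) at each TEAD region (above) and H3K27ac region (below) of chromosome 8, against distance of the summit from its arm limit in Mb; black bars are means of 5 Mb steps with at least 20 regions and the dashed line is the median of such step means on the other chromosomes. Every black bar of 8p lies below the dashed line and every one of 8q above it.

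The steps show where the change lies. Across the 9 steps of 8p the mean H3K27ac background ran from 1.71 to 2.16 reads, with the lowest values from 25 to 40 Mb. Across the 20 ranked steps of 8q, those with at least 20 regions, it ran from 3.63 to 4.79. The highest lay from 100 to 105 Mb (4.79), from 48.1 to 50 Mb (4.62) and from 105 to 110 Mb (4.55), and the lowest from 85 to 90 Mb. TEAD steps ran from 1.49 to 1.85 on 8p and from 2.95 to 4.32 on 8q. The step values of the arms did not overlap in either list.

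Between the last step of 8p and the first of 8q the H3K27ac background went from 1.93 to 4.62 reads, a ratio of 2.39. The TEAD background went from 1.64 to 3.99, a ratio of 2.44. Any other neighbouring steps of chromosome 8 differed by at most 1.18-fold for H3K27ac and 1.35-fold for TEAD. The last H3K27ac region of 8p, from 42994893 to 42997206 (19.2-fold), had a background of 1.45 reads. The first of 8q, from 48172762 to 48174150 (11.6-fold), had 4.94. The last TEAD region of 8p, from 42997418 to 42997696, had 1.40 reads, and the first of 8q, from 48173313 to 48173597, had 6.31. Among the 20 H3K27ac regions nearest each limit the median was 1.45 reads on 8p and 4.23 on 8q, and among the 20 nearest TEAD regions it was 1.36 and 4.72. The change thus fell within the 5.18 Mb between the arms that held no region.

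**Figure D3:**
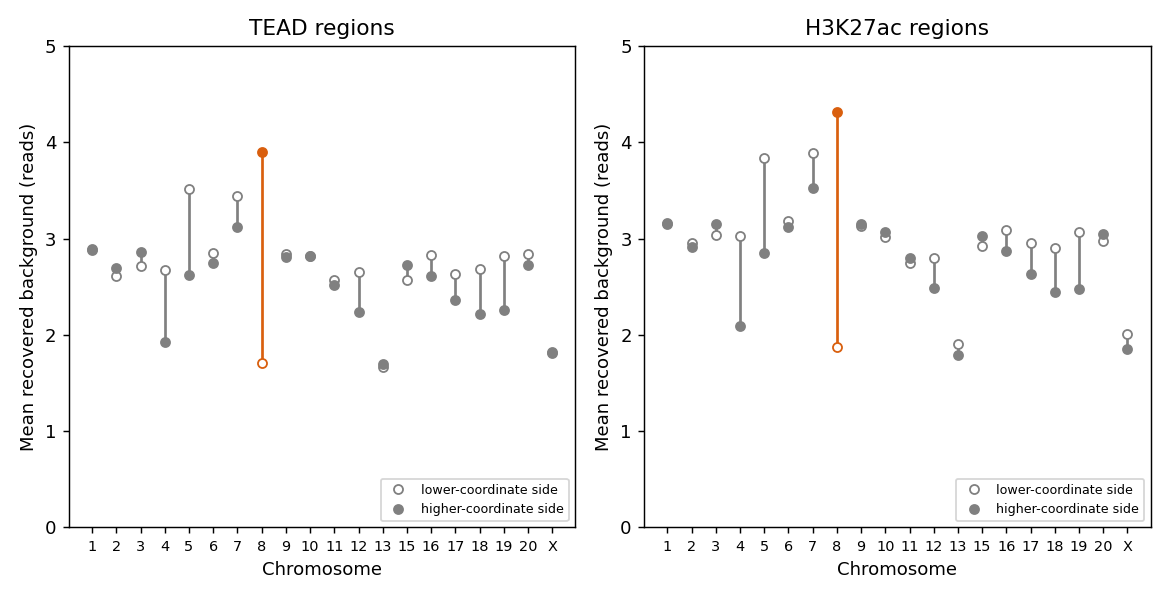
Mean recovered background in reads (vertical axis) on the lower-coordinate side (open circles) and the higher-coordinate side (filled circles) of the widest stretch without a region, for each chromosome with at least 100 regions of both lists on each side; TEAD left, H3K27ac right, chromosome 8 in orange. The 2 sides of chromosome 8 differ by 2.27-fold (TEAD) and 2.30-fold (H3K27ac), and those of the other 19 chromosomes by at most 1.39-fold and 1.45-fold.

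Set beside the rest of the genome, 8p ranked among the lowest and 8q was the highest. Each chromosome was divided at its widest stretch without a region, which is not the centromere on every chromosome, and 20 chromosomes had at least 100 regions of both lists on each side. Of these 40 sides, 8q had the highest mean background in both lists and 8p the third lowest. The ratio of the higher-coordinate to the lower-coordinate side was 0.69 to 1.04 for H3K27ac and 0.72 to 1.06 for TEAD on the other 19 chromosomes, against 2.30 and 2.27 on chromosome 8. Of 513 ranked 5 Mb steps on other chromosomes, 50 (9.75%) were at or below the highest H3K27ac step of 8p and 27 (5.26%) were at or above the lowest of 8q. Steps of at least 4 reads numbered 25 in all, and 19 of them lay on 8q. Of the 458 pairs of neighbouring steps elsewhere, the greatest H3K27ac ratio was 1.5997, on chromosome 5. Steps on either side of an unranked step were not paired. Chromosome 5 held 6 steps in the H3K27ac range of 8q and 9 in that of 8p, while its sides had means of 3.83 and 2.85 reads. Neither comparison sets those steps against each other, so the size of a change between them is not given here. TEAD set the arms less far apart from the rest: 84 of 485 steps elsewhere (17.3%) reached the lowest of 8q. The greatest TEAD ratio of 414 neighbouring pairs was 2.32 on chromosome 22, from means of 6.12 and 2.64 reads. The H3K27ac means of those steps were 2.66 and 2.75 reads, so only the TEAD list showed that change. Single TEAD regions outside chromosome 8 had a background of up to 143 reads, which can raise the mean of a step.

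Among called regions, reads at the summit were also higher on 8q, by a smaller factor than the background. The median summit pileup of TEAD regions was 19 reads (interquartile range 14 to 31) on 8p and 29 (21 to 48) on 8q, a ratio of 1.53. For H3K27ac it was 18 (12 to 30) and 28 (19 to 56), a ratio of 1.56. A call needs more reads where the background is higher, so the medians are of sets cut at unlike levels. The 10th percentile of pileup was 11 reads on 8p and 17 on 8q for TEAD, and 10 and 16 for H3K27ac. Median fold was accordingly lower on 8q, 6.38 against 7.62 for TEAD and 5.59 against 6.54 for H3K27ac, with whole-list medians of 7.14 and 6.54. The difference of median log2 fold, 8q minus 8p, was -0.26 (-0.32 to -0.18) for TEAD and -0.23 (-0.32 to -0.16) for H3K27ac. These intervals reflect the spread over regions of 1 library, not over replicates. The lowest fold listed was 3.106 (TEAD) and 2.86 (H3K27ac) on 8p, and 2.41 and 2.36 on 8q. Among regions of at least 5-fold the differences were -0.03 for TEAD and 0.085 for H3K27ac, and both intervals included 0.

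H3K27ac regions carried TEAD more often on 8q. A TEAD region overlapped 264 of 763 H3K27ac regions on 8p (34.6%, 31.3 to 38.05%) and 774 of 1614 on 8q (47.96%, 45.5 to 50.4%), beside 41.7% of the whole list. The difference was 13.4 percentage points (9.14 to 17.5). More than 1 TEAD region was carried by 32 H3K27ac regions on 8p (4.19%) and 132 on 8q (8.18%), beside 5.87% of the whole list. At most 4 lay in a region on 8p and 5 on 8q. H3K27ac regions more than 50 kb from any TEAD region made up 9.57% of those on 8p (7.68 to 11.9%) and 4.09% on 8q (3.23 to 5.17%), beside 7.17% of the whole list.

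The difference in share was also seen among H3K27ac regions of like width. H3K27ac regions had a median width of 862 bp on 8p and 921.5 bp on 8q, and wider regions carried TEAD more often on both arms. Within width deciles of the whole list the share was higher on 8q in 9 of 10, and the weighted difference was 10.3 percentage points. In the ninth decile, 2118 to 2992 bp, 38 of 73 regions on 8p (52.1%, 40.8 to 63.1%) and 122 of 161 on 8q (75.8%, 68.6 to 81.7%) carried TEAD. In the third decile, 444 to 559 bp, the shares were 28.6% and 27.4%.

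**Figure D4:**
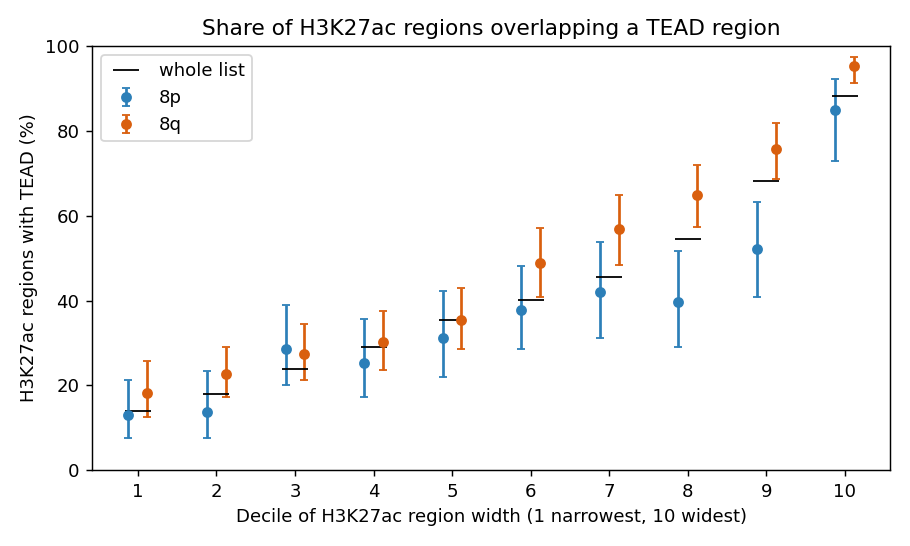
Share of H3K27ac regions that overlap a TEAD region in percent (vertical axis) by decile of H3K27ac region width (horizontal axis, 1 narrowest), for 8p (blue), 8q (orange) and the whole list (black dashes); bars are 95% Wilson intervals. The share rises with width on both arms, at every decile on 8q but with small falls between some deciles on 8p. It is higher on 8q in 9 of 10 deciles, with 52.1% on 8p and 75.8% on 8q in the ninth.

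Steps with a like background on other chromosomes gave similar numbers of TEAD regions per H3K27ac region. Over the 9 steps of 8p the number had a median of 0.54 (interquartile range 0.53 to 0.62, full range 0.38 to 0.65). Over the 20 steps of 8q the median was 0.86 (interquartile range 0.81 to 0.92, full range 0.54 to 1.36). The 38 steps elsewhere whose H3K27ac background lay in the 8p range had a median of 0.54 (interquartile range 0.50 to 0.62, full range 0.35 to 1.11). Of these, 11 lay on chromosome 13, 10 on X, 9 on chromosome 5 and 7 on chromosome 4. The 26 steps elsewhere in the 8q range, 17 of them on chromosome 7, had a median of 0.79 (interquartile range 0.68 to 0.87, full range 0.57 to 1.48). In these sets 34.98% and 46.9% of H3K27ac regions carried TEAD, beside 34.6% and 47.9% in the ranked steps of 8p and 8q. The share of TEAD regions that overlapped H3K27ac was less alike. It was 62.5% and 69.9% in these sets, beside 66.3% and 65.1% in the ranked steps of 8p and 8q. The part of background in the TEAD excess of 8q was not tested.

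**Figure D5:**
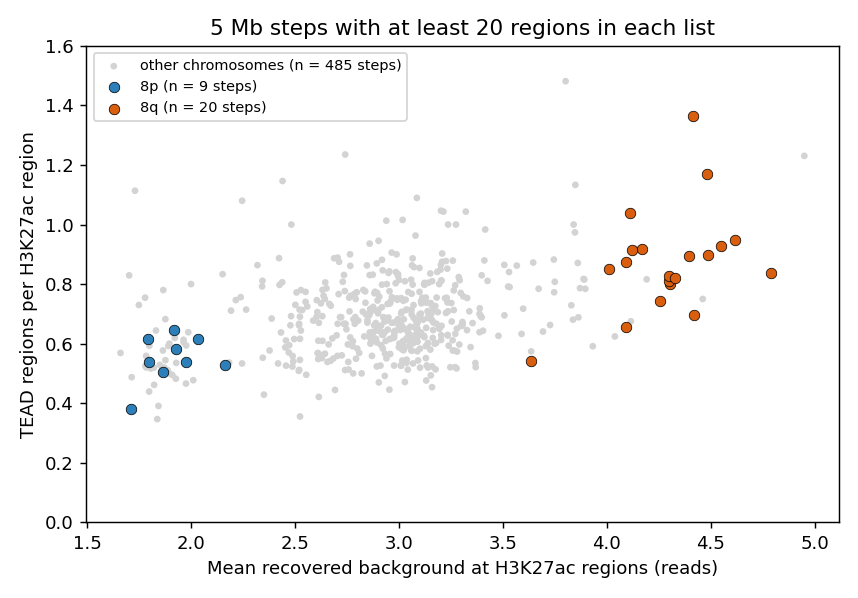
TEAD regions per H3K27ac region (vertical axis) against mean recovered background in reads at H3K27ac regions (horizontal axis) for 5 Mb steps with at least 20 regions in each list: 9 of 8p (blue), 20 of 8q (orange) and 485 of other chromosomes (grey). Steps of 8p lie at low background with 0.38 to 0.65 TEAD regions per H3K27ac region, and those of 8q at high background with 0.54 to 1.36.

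The acetylated share of TEAD regions did not differ detectably between the arms. TEAD regions are called marked where they overlapped H3K27ac by 1 bp or more. Marked were 271 of 409 TEAD regions on 8p (66.3%, 61.5 to 70.7%) and 866 of 1334 on 8q (64.9%, 62.3 to 67.4%), beside 68.4% of the whole list. The difference was -1.34 percentage points (-6.46 to 4.002). The summit lay inside H3K27ac for 48.4% on 8p and 52.8% on 8q, beside 55.3% of the whole list, a difference of 4.44 points (-1.09 to 9.93).

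Within each arm, TEAD regions of higher background were marked more often. On 8p the share was 60.2% (53.9 to 66.1%) for the 246 regions at or below the arm's median background and 75.5% (68.3 to 81.4%) for the 163 above it. On 8q it was 51.3% (47.6 to 54.9%) for 706 and 80.3% (77.0 to 83.2%) for 628. Quintiles of background set over the whole TEAD list split the arms very unevenly, with 285 of 409 regions of 8p and 30 of 1334 of 8q in the lowest. In all 5 quintiles the marked share was lower on 8q. In the fourth it was 59.9% of 324 (54.5 to 65.1%) against 79.2% of 24 (59.5 to 90.8%), with overlapping intervals. The fifth held only 8 regions of 8p. The weighted difference was -37.6 percentage points, against -3.21 when each arm was divided at its own median.

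The position of TEAD relative to H3K27ac differed in detail. TEAD regions that overlapped H3K27ac with the summit outside made up 17.8% on 8p (14.4 to 21.9%) and 12.1% on 8q (10.4 to 13.9%). Those without overlap but within 5 kb were 14.2% (11.1 to 17.9%) and 9.97% (8.48 to 11.7%). TEAD regions 5 to 50 kb away were 11.002% (8.33 to 14.4%) and 15.5% (13.7 to 17.6%), and those beyond 50 kb were 8.56% and 9.60%. In the whole list these classes made up 13.1%, 9.44%, 14.9% and 7.24%, in the same order. In the first 3 classes 8q was nearer to the whole list than 8p was. TEAD summits inside an H3K27ac region lay from its own summit by a median of 401.5 bp on 8p (n = 198) and 398 bp on 8q (n = 705). TEAD touched 2 H3K27ac regions at once in 33 cases on 8p (8.07%) and 61 on 8q (4.57%), beside 5.53% of the whole list.

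Marked TEAD regions had a higher median fold and median width than unmarked ones on both arms, with overlapping spreads of fold. The interquartile ranges of fold were 5.66 to 13.2 for marked and 5.83 to 9.90 for unmarked regions on 8p. On 8q they were 4.80 to 11.4 and 4.96 to 8.34. Median fold was 7.84 for the 271 marked and 7.45 for the 138 unmarked regions of 8p, and 6.77 for 866 and 6.04 for 468 on 8q. Median width was 477 against 390 bp on 8p and 537 against 383.5 bp on 8q. H3K27ac regions with TEAD had a median fold of 8.65 on 8p and 8.40 on 8q, and those without had 5.71 and 4.54. The mean background of unmarked TEAD regions was 1.59 reads on 8p and 3.24 on 8q, a ratio of 2.04, so the arms also differed outside called H3K27ac regions.

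The strongest TEAD region of the chromosome lay on 8q, from 129188526 to 129189911, within the step that holds MYC. It had 431 reads at the summit over a background of 3.96, a fold of 87.0 (counting interval 79.0 to 95.6), and ranked 19 of 35241 in the list. It touched 2 H3K27ac regions, with the summit inside one that spanned 3610 bp and reached 29.6-fold. The next on 8q lay from 141844647 to 141845444 (58.4-fold), with its summit outside the H3K27ac region it overlapped. Another, from 134420821 to 134421460 (53.3-fold), was unmarked, and the nearest H3K27ac region was 4144 bp away. Those from 71520257 to 71521039 (50.7-fold) and from 130697475 to 130698427 (49.0-fold) had the summit inside H3K27ac. The counting intervals of these last 4 overlapped.

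The 5 strongest TEAD regions of 8p reached similar folds with fewer reads. The first, from 40930472 to 40931194, had 168 reads over a background of 1.40 and a fold of 70.3 (60.2 to 81.7). Another, from 22454722 to 22455965, had 201 reads and 65.7-fold (57.0 to 75.4) and sat within acetylated chromatin spanning 2880 bp at 17.9-fold. The region from 17663244 to 17664020 (61.7-fold) also lay inside H3K27ac. Those from 42149986 to 42150730 (56.6-fold) and from 23577666 to 23578360 (54.5-fold) overlapped H3K27ac with the summit outside. The strongest 5 on 8p had 129 to 201 reads at the summit, and the strongest 5 on 8q 203 to 431, so these pileups did not overlap. The widest TEAD region of the whole list was on 8q as well, from 49320081 to 49323319 (3239 bp, 42.6-fold).

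Of the 5 strongest H3K27ac regions of 8p 3 carried no TEAD region, beside 499 of all 763 on that arm. The highest, from 28215841 to 28233457, was 17617 bp wide at 31.9-fold (25.3 to 39.7) and carried 4 TEAD regions. The next, from 21998234 to 22000061 (28.6-fold), from 25316325 to 25317240 (27.1-fold) and from 22297720 to 22300752 (26.9-fold), carried none, with the nearest TEAD region 27439, 15858 and 47407 bp away. The fifth, from 30240509 to 30245416 (26.3-fold), carried 1. On 8q the highest lay from 48642458 to 48652036 (39.7-fold, 34.05 to 46.1), ranked 28 of 52667 and carried 3 TEAD regions. It was followed by regions from 104383342 to 104386262 (35.8-fold, 1 TEAD region), from 123791905 to 123796485 (34.6-fold, 1) and from 103666343 to 103670527 (34.5-fold, 3). The fifth, from 103764814 to 103766660 (32.1-fold), carried none, and a TEAD region lay 1735 bp away.

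Large clusters of acetylation were more frequent on 8q. H3K27ac regions joined over gaps of up to 12.5 kb formed 308 domains on 8p and 674 on 8q. Domains past the point where the ranked curve of summed fold times width reaches slope 1 are called large. Large were 4 domains on 8p (1.299%, 0.51 to 3.29%) and 31 on 8q (4.599%, 3.26 to 6.45%), beside 3.82% of all domains. Per 10 Mb this was 0.93 and 3.16, a ratio of 3.40 with the wide interval of 1.20 to 13.3. A TEAD summit lay in 48.4% of the domains of 8p (42.9 to 53.9%) and 63.6% of those of 8q (60.0 to 67.2%), beside 55.2% of all domains, and in all 4 and all 31 large ones. Large domains held 32 TEAD regions of 8p (7.82%) and 197 of 8q (14.8%), beside 14.6% of the whole list. The share was thus low on 8p and near that of the whole list on 8q. How many large domains of the whole series held a TEAD summit is not given here.

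The domain of highest summed fold times width on the chromosome was nonetheless on 8p, from 28199139 to 28277182 (78.0 kb). It ranked 18 of 22587 and held 20 H3K27ac and 13 TEAD regions, the strongest TEAD region at 13.3-fold. The next on 8p lay from 23177536 to 23224674 and from 38749060 to 38804040, each with 11 H3K27ac and 7 TEAD regions. On 8q the first lay from 128860975 to 128944656 (83.7 kb, rank 53), with 25 H3K27ac and 16 TEAD regions. The second lay from 145002114 to 145065831 (63.7 kb, rank 60), with 9 of each. The third, from 129114677 to 129206259 (91.6 kb, rank 88), held 20 H3K27ac and 9 TEAD regions, among them the one of 87.0-fold. Mean background was 1.82, 1.72 and 1.69 reads in the 3 domains of 8p and 4.75, 4.25 and 4.38 in those of 8q. Fold is a ratio to the background, so these ranks are not ranks of reads.

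The step from 125 to 130 Mb held those at ranks 53 and 88. It contained 64 H3K27ac domains, 4 of them large, and the other two large ones lay from 128806078 to 128846261 (8 TEAD regions) and from 125187331 to 125214704 (3 TEAD regions). Of its 155 TEAD regions 75.5% were marked, beside 68.4% of the whole list, and 48.4% of its 223 H3K27ac regions carried TEAD. TEAD regions were fewest from 127 to 128 Mb (14) and most frequent from 126 to 127 Mb (40). Their median fold was 8.43 from 128 to 129 Mb and 8.03 from 129 to 130 Mb, against 5.79 to 6.25 in the other 3 parts of 1 Mb. The background of the step was not exceptional for the arm, at 4.42 reads for H3K27ac and 4.18 for TEAD.

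The end of 8q was looked up after the values had been seen. All 4 H3K27ac and all 6 TEAD regions of 8q at the background floor lay beyond 140 Mb, where 152 H3K27ac and 138 TEAD regions were found. None of the 1462 H3K27ac and 1196 TEAD regions before 140 Mb sat at the floor. The mean background beyond 140 Mb was 4.26 against 4.31 reads before it for H3K27ac and 3.78 against 3.91 for TEAD. Beyond 145 Mb, 58 H3K27ac regions had a median fold of 13.2, against 4.65 to 8.71 in the other ranked steps of 8q.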

How the data were processed

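Chromatin of 786-O cells was fixed in 1% formaldehyde for 10 min, per the labels' protocols. The submitters' processing notes name fastp, Bowtie2 2.4.5, MACS2 and hg19, with no role or order; parameters, threshold and control were not stated there or in the labels. Each row deposited by the authors gives a fold enrichment (a ratio of summit pileup to local background) with −log10 p and −log10 q. The authors also deposited a whole-number score, within 1 of 10 times −log10 q and not used, and the summit's distance from the peak start.

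Chromosomes 1 to 22 and X were kept. Pileup k and background b were solved from (k + 1)/(b + 1) = fold and the Poisson p of more than k reads. A whole k within 0.002 of the −log10 p existed for 100% of regions in both lists, and the code was tested on simulated data. Total reads per library were not stated; the median summit pileup was 24 reads in both lists.

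Shares carry Wilson intervals, densities exact Poisson intervals, share differences Newcombe intervals and density ratios exact conditional ones. Intervals on differences of median log2 fold combine the order-statistic intervals of both medians over regions. Steps of 5 Mb were counted from position 1 by summit and ranked with at least 20 regions. Named regions were the 5 of highest fold per list and arm, those next to the arm limits, the 3 steps of highest and of lowest H3K27ac background, and the 3 domains of highest summed fold times width per arm. Members and lists were chosen with earlier results of these data known. The gene table at hand was of another build, so no gene was assigned to a region; the planned gene lists and markers were not run. No sequence is shown. Python 3.11, numpy 2.4.6, pandas 2.3.3, scipy 1.17.1 and matplotlib 3.10.9 were used.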

Additional observations from a re-analysis of the deposited data

How the results depend on the processing

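Of 54 alternatives, 41 of them planned and 13 added once values were known, 30 stayed within the interval of the first value and on the same side of no difference. A change of side was counted as a reversal only where the interval of the first value excluded no difference. Both reversals so counted came with a fold minimum. The H3K27ac difference of median log2 fold became 0.085 (-0.02 to 0.17) at 5-fold. The ratio of TEAD per H3K27ac region between the arms was 1.54 with all regions and 1.36 to 1.58 under the other 5 alternatives. It became 0.68 (0.38 to 1.23) at 20-fold. Both of these intervals included no difference. The H3K27ac density ratio and the marked share difference, whose first intervals included no difference, also changed side under some alternatives given below. The cause of these changes was not tested.

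The TEAD density ratio of 1.43 moved to 1.18 at 5-fold, to 1.19 at 20-fold and to 1.73 for the long arm from 100 Mb onward. The H3K27ac density ratio of 0.93 moved to 0.76 at 5-fold, 1.75 at 20-fold, 1.13 for the long arm from 100 Mb onward, 0.82 without the first 13 Mb of 8p, 0.84 without the 125 to 130 Mb step and 1.05 without the 20 to 25 Mb step. The marked share difference of -1.34 points was 0.89 at a −log10 q of at least 5, 4.44 for the summit inside H3K27ac, 1.29 for at least 50% of the TEAD region covered, and -37.6 within background quintiles.

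The TEAD background ratio of 2.27 was 2.56 from medians, 2.04 without the floor and 2.04 without marked regions; the H3K27ac ratio of 2.30 was 2.39 at 5-fold, 2.86 from medians, 1.92 without the floor and 2.15 without regions carrying TEAD. The TEAD median log2 fold difference was -0.027 at 5-fold. The highest over the lowest 5 Mb step of H3K27ac background, 2.80, was 3.05 from medians.

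Depth limits the weak regions: none had under 7 reads at the summit, and background below 1.297 (TEAD) or 1.45 reads (H3K27ac) could not be resolved. No paired analysis was possible because each group had 1 library.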
